A study of Mus musculus with 36 samples.

Results

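Gene expression after 3 days and after 1 day in medium conditioned by mutant SOD1 astrocytes was compared in mouse motor neurons grown from embryonic stem cells. All 6 libraries labelled mSOD1 transgenic at 3 days were set against all 6 labelled mSOD1 transgenic at 1 day, which are 12 of the 36 libraries of the series. The stem cells came from Hlxb9-GFP1Tmj mice and carried eGFP, alone or with the surface protein CD2, under the promoter of HB9 (Mnx1). Cells bearing CD2 were collected on magnetic beads before plating, so the motor neuron label of every library rests on that promoter. Astrocytes with the G93A mutant of SOD1 (mSOD1), grown from the cord or the cortex of newborn pups, conditioned the medium. The tissue behind the medium of each library is not stated in the labels. D-glucose, penicillin and streptomycin, GDNF, BDNF and CNTF were added to every medium, those of day 3 and day 1 alike. For comparison, the same days were sampled in medium from non-transgenic astrocytes (NTg) and from astrocytes that over-express wild-type SOD1 (wtSOD1), with 6 libraries per medium and day. The time zero cells that the series description names were not analysed here.

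Spinal motor neurons arise from dividing progenitors under retinoic acid and sonic hedgehog, leave the cell cycle, and are specified by the homeodomain factors Mnx1, Isl1 and Lhx3. They then mature by building axons, acetylcholine synthesis and release machinery, and ion channels. Astrocytes that carry mutant SOD1 are known to release factors that harm motor neurons in culture, and medium transfer is a usual way of studying them.

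The day 3 libraries held 10.5 to 16.9 M reads in genes and the day 1 libraries 8.58 to 18.8 M, and 15207 of 21761 listed genes were tested. Expression is given in CPM, counts per M reads of scaled library size, which compare the same gene between libraries but not different genes, since they are not divided by gene length. On the first principal component of the 12 libraries, which carried 60.8% of the variance, day 3 libraries lay at 25.3 to 44.0 and day 1 libraries at -44.2 to -34.0. Day 3 replicate 1 lay nearest to day 1, at 25.3, while the other 5 started at 34.5. Nothing in the labels says that the libraries came from separate differentiations, so the p-values measure the spread between these libraries, which may be partly technical. The labels carry an experiment number but do not say whether it marks a batch shared across days or media. The main test leaves this number out, and counts with it as a block are given below. Sod1, the mouse gene of the enzyme altered in the astrocytes, had 36.7 to 40.4 CPM with a median of 39.1 CPM on day 3, against 36.8 to 48 CPM with a median of 41.1 CPM on day 1. Its groups overlapped, and the log2 difference was -0.10 ± 0.08 (adjusted p = 0.314).

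Between the days 8587 genes changed (56.5% of those tested), of which 4323 (28.4%) rose and 4264 (28.0%) fell on day 3, at an adjusted p below 0.05 in edgeR's quasi-likelihood test. Without day 3 replicate 1 the counts were 4328 higher and 4186 lower. The median log2 difference of all tested genes was -0.01, with quartiles at -0.23 and 0.28. Calls against a fold of 2 were one-sided, with 558 genes in all (3.67%), 496 (3.26%) higher and 62 (0.408%) lower on day 3. On the authors' transformed values 205 genes passed that fold, 194 higher and 11 lower. For 32.0% of all tested genes the 6 day 3 values and the 6 day 1 values did not overlap.

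The 12 largest rises were taken among genes that passed, averaged at least 10 CPM and had groups without overlap. They included matrix, surface and glial genes. Ly6a (gene 110454), a surface protein anchored by a lipid and a member of a family with near-identical genes, had 16.8 to 24.2 CPM with a median of 19.2 CPM on day 3, against 0.435 to 1.6 CPM with a median of 0.61 CPM on day 1. Aldh1l1 (gene 107747), a folate enzyme that marks astrocytes, had 105 to 153 CPM with a median of 124 CPM on day 3, against 12.3 to 19.8 CPM with a median of 17.4 CPM on day 1. Lox (gene 16948), which crosslinks collagen, had 22.4 to 32.3 CPM with a median of 26.3 CPM on day 3, against 1.98 to 5.86 CPM with a median of 3.08 CPM on day 1. All day 3 libraries lay above all day 1 libraries in each of them, as the rule for this ranking required. The log2 differences (estimate ± SE, n = 6 per group) were 4.67 ± 0.27 (adjusted p = 5.24e-17) for Ly6a, 2.92 ± 0.14 (adjusted p = 8.55e-19) for Aldh1l1 and 2.95 ± 0.16 (adjusted p = 7.9e-18) for Lox. A number in brackets after an estimate is its adjusted p. The others with the largest rises were Itih5, a hyaluronan-binding protein (3.25 ± 0.14, 2.81e-21), Prrx1, a transcription factor of mesenchyme (3.21 ± 0.22, 6.11e-15), Col4a6, a basement membrane collagen (3.13 ± 0.15, 1.32e-18), and Reg3b, a secreted lectin (3.12 ± 0.17, 1.06e-17). Casq1, a calcium store protein, differed by 3.07 ± 0.13 (1.72e-20), Ephx1, an epoxide hydrolase, by 2.89 ± 0.14 (1.35e-18), Jam2, a junction protein, by 2.85 ± 0.13 (1.43e-19), Rhoj, a small GTPase, by 2.84 ± 0.17 (2.31e-16), and Vgll3, a transcriptional cofactor, by 2.83 ± 0.11 (2.88e-21).

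The 12 largest falls, taken under the same rule, included a neurotrophin receptor, interferon genes and a cell cycle inhibitor. Rem2 (gene 140743), a small GTPase that acts on calcium channels, had 3.00 to 4.16 CPM with a median of 3.84 CPM on day 3, against 13.5 to 23.7 CPM with a median of 18.9 CPM on day 1 (-2.37 ± 0.17, adjusted p = 7.56e-15). Ngfr (gene 18053), the p75 neurotrophin receptor, had 59 to 103 CPM with a median of 80.9 CPM on day 3, against 268 to 338 CPM with a median of 288 CPM on day 1 (-1.88 ± 0.13, adjusted p = 3.87e-14). Cdkn1c (gene 12577), the cell cycle inhibitor p57, had 11 to 15.6 CPM with a median of 14.1 CPM on day 3, against 29.8 to 47.9 CPM with a median of 35.3 CPM on day 1 (-1.44 ± 0.14, adjusted p = 1.15e-10). No day 3 library reached the lowest day 1 library in any of these, as the rule for this ranking required. Ldb2, a cofactor of LIM homeodomain factors, stood at -2.31 ± 0.13 (5.53e-18) and Nkx6-3, a homeodomain factor, at -1.95 ± 0.21 (1.08e-09). Others were Mnx1, described next, Usp18 and Oasl2, both induced by interferon, the chemokine Ccl2 and the early-response factor Junb.

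Factors of motor neuron identity fell. Of 30 tested, 22 fell, 2 rose and 6 did not pass, with a median log2 difference of -0.64, against 28.0% falling and a median of -0.01 over all genes. Mnx1 (gene 15285), the factor whose promoter was used to collect the cells, had 28 to 42.4 CPM with a median of 37.7 CPM on day 3, against 86.9 to 124 CPM with a median of 106 CPM on day 1 (-1.55 ± 0.13, adjusted p = 5.55e-12). Isl1 (gene 16392), which switches on cholinergic genes, had 46.2 to 63.5 CPM with a median of 61.2 CPM on day 3, against 139 to 163 CPM with a median of 152 CPM on day 1 (-1.39 ± 0.10, adjusted p = 1.25e-13). Lhx3 (gene 16871), which binds DNA together with Isl1 in young motor neurons, had 0.868 to 2.33 CPM with a median of 1.52 CPM on day 3, against 4.57 to 6.33 CPM with a median of 5.32 CPM on day 1 (-1.84 ± 0.19, adjusted p = 7.34e-11). The 2 groups did not overlap for Mnx1, Isl1 or Lhx3. Isl2, a close relative of Isl1, fell as well (-2.22 ± 0.20, adjusted p = 8.31e-12), and so did Ebf3, a helix-loop-helix factor of differentiating neurons (-0.67 ± 0.08, adjusted p = 1.12e-09). One of the 2 that rose was Aldh1a2, which makes retinoic acid and is strong in limb motor columns, with 3.04 to 15.3 CPM with a median of 12.1 CPM on day 3, against 0.304 to 1.47 CPM with a median of 0.598 CPM on day 1 (3.94 ± 0.40, adjusted p = 2.45e-10). In these bulk libraries fewer motor neurons and less of an RNA per motor neuron cannot be told apart. Markers of other cells moved in the same comparison: 13 of 17 tested astrocyte markers rose, with a summed level of 910.2 to 1145 CPM on day 3 and 499 to 620.4 CPM on day 1, and 13 of 16 mesenchyme markers rose. No astrocyte marker was without a read, and the part of these cells in the fall of the motor neuron genes was not tested.

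Genes of cholinergic transmission, which include nicotinic receptor subunits, fell as well. Of 14 tested, 8 fell and 6 did not pass, with a median of -0.42, where 28.0% of all genes fell. Chat, which makes acetylcholine, had 78.8 to 116 CPM with a median of 98.5 CPM on day 3, against 196 to 252 CPM with a median of 216 CPM on day 1 (-1.13 ± 0.10, adjusted p = 2.12e-11). Slc18a3, which loads acetylcholine into vesicles, lies inside Chat, and reads could be shared between these genes. Neither its fall (-1.14 ± 0.12, 6.9e-10) nor that of Chat can therefore be assigned to a single gene. Slc5a7, the choline carrier of the terminal, had 107 to 163 CPM with a median of 157 CPM on day 3, against 187 to 249.6 CPM with a median of 220.0 CPM on day 1 (-0.59 ± 0.11, adjusted p = 2.43e-05). The days did not overlap for any of the 3. Chrnb2, a nicotinic receptor subunit whose gene overlaps Adar, differed by -0.58 ± 0.08 (5.26e-08).

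**Figure D1:**
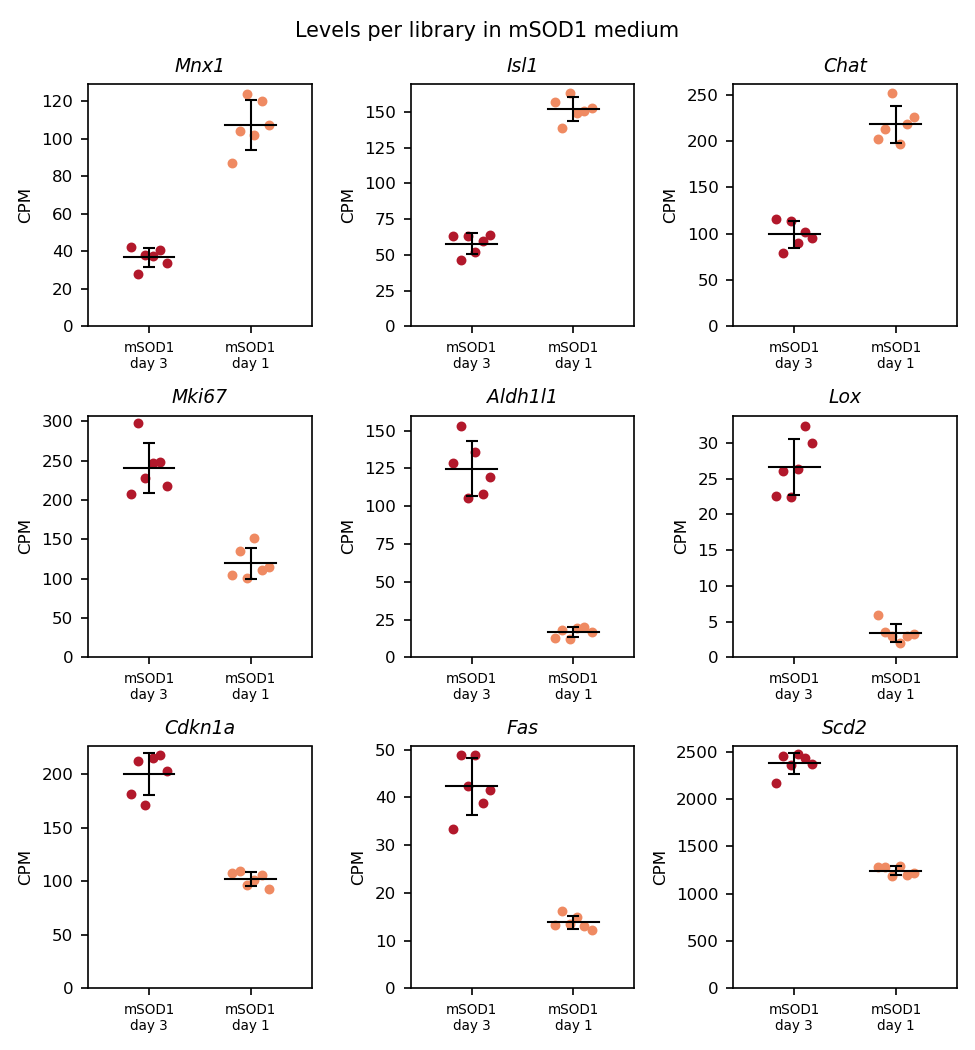
Levels of 9 genes in mSOD1 medium, in CPM from 0, with day 3 left of day 1. Each point is 1 of 6 libraries, and the line and bar show the mean and SD. The motor neuron genes Mnx1, Isl1 and Chat lie lower on day 3, while the cell cycle gene Mki67, the astrocyte gene Aldh1l1, the matrix gene Lox, the p53 targets Cdkn1a and Fas and the lipid gene Scd2 lie higher, with no overlap between days.

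Most pan-neuronal and axonal genes fell as well. Of 22 pan-neuronal genes 19 fell and 1 rose (median -0.52), and of 23 neurofilament and axonal cytoskeleton genes 19 fell and 2 rose (median -0.44). Tubb3, the neuronal tubulin, had 699 to 1038 CPM with a median of 813 CPM on day 3, against 1152 to 1437 CPM with a median of 1224 CPM on day 1 (-0.60 ± 0.10, adjusted p = 3.65e-06). Ina, a neurofilament subunit of young neurons whose gene overlaps Nt5c2, had 276 to 413 CPM with a median of 342 CPM on day 3, against 629 to 803 CPM with a median of 694 CPM on day 1 (-1.04 ± 0.11, adjusted p = 3.61e-10). Elavl4, an RNA-binding protein of neurons, stood at -0.70 ± 0.07 (4.64e-11), and Dcx, a microtubule protein of migrating neurons, at -0.66 ± 0.07 (2.46e-10). The growth cone protein Gap43 differed by -0.57 ± 0.07 (2.39e-09), the microtubule regulators Stmn1 and Stmn2 by -0.76 ± 0.06 (2.88e-13) and -0.34 ± 0.08 (0.000322), Tubb2b by -0.52 ± 0.08 (3.41e-07), and Dync1i1, a dynein chain of neurons, by -1.20 ± 0.14 (4.5e-09).

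The neurofilament subunits did not move together. Nefl, the light subunit, fell (-0.59 ± 0.11, adjusted p = 3.78e-05), as did Nefm, the medium subunit (-0.44 ± 0.09, adjusted p = 0.000153), and Prph, the peripheral neuron filament peripherin (-0.51 ± 0.11, adjusted p = 0.000204). Nefh, the heavy subunit that is added as axons mature, had 65.4 to 107 CPM with a median of 73.7 CPM on day 3, against 36 to 51.8 CPM with a median of 44.9 CPM on day 1 (0.79 ± 0.12, adjusted p = 1.39e-06). Its day 3 libraries all lay above day 1, although Ap1b1 overlaps it and reads could be shared. Day 3 replicate 1 had the highest Nefh value, 107 CPM, and the next highest was 75.3 CPM.

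Synaptic and receptor genes split by member. Of 28 genes of synaptic vesicles and release 19 fell and 5 rose (median -0.30). Unc13a, a priming factor whose gene overlaps Colgalt1, fell (-0.69 ± 0.09, adjusted p = 7e-08). Sv2b, a vesicle glycoprotein, had 14.1 to 24.5 CPM with a median of 17.5 CPM on day 3, against 5.15 to 8.17 CPM with a median of 6.64 CPM on day 1 (1.44 ± 0.16, adjusted p = 6.96e-10), and Syn3, a synapsin that overlaps Fbxo7 and Timp3, differed by 0.84 ± 0.06 (2.64e-15). Among glutamate receptors 7 of 23 rose and 6 fell. Gria1, an AMPA receptor subunit, had 64.6 to 87.6 CPM with a median of 75.1 CPM on day 3, against 26.4 to 38.2 CPM with a median of 33.2 CPM on day 1 (1.18 ± 0.09, adjusted p = 2.57e-14). Gria2, the subunit that keeps AMPA receptors closed to calcium, had 221 to 303 CPM with a median of 248 CPM on day 3, against 296 to 433 CPM with a median of 383 CPM on day 1 (-0.52 ± 0.09, adjusted p = 1.14e-05), and its groups overlapped. The metabotropic receptor Grm8 differed by 1.26 ± 0.18 (1.8e-07). Among GABA and glycine receptors 9 of 18 rose and 4 fell, with the GABA-A subunit Gabra2 at 1.26 ± 0.08 (3.06e-16), the glycine receptor subunit Glra2 at 0.70 ± 0.10 (5.35e-07) and the GABA-B subunit Gabbr1 at -0.47 ± 0.07 (2.97e-07).

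Of 29 potassium channels 9 rose and 6 fell, and of 25 sodium and calcium channels 6 rose and 12 fell. Over all tested genes 28.4% rose and 28.0% fell. The counts of potassium channels and glutamate receptors lie near these shares, as do the falls of GABA and glycine receptors. Kcnj6, an inward rectifier, rose (1.43 ± 0.16, adjusted p = 1.36e-09), while Kcnd3, an A-type channel (-0.79 ± 0.09, 8.2e-10), and Kcnh2, an ERG channel (-0.90 ± 0.11, 4.87e-09), fell. Scn9a, a sodium channel of peripheral neurons, differed by -0.62 ± 0.08 (1.42e-08), and Cacnb3, a calcium channel subunit, by -0.53 ± 0.07 (2.16e-08). Of 22 neuropeptide and processing genes 15 fell and 2 rose (median -0.55, 1 rose without day 3 replicate 1). They include Cartpt, a peptide precursor, with 28.4 to 55.5 CPM with a median of 40.3 CPM on day 3, against 82 to 108 CPM with a median of 97.8 CPM on day 1 (-1.28 ± 0.14, adjusted p = 3.94e-09), the granule protein Scg2 (-0.63 ± 0.11, 4.46e-06) and the convertase Pcsk2 (-0.76 ± 0.08, 9.76e-11).

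Axon guidance receptors and ligands changed in both directions, 18 lower and 11 higher of 40. Over all tested genes 28.0% fell and 28.4% rose, and the rises of this list and of the injury list below lie near that share. Nrp2, a semaphorin and VEGF receptor, had 80.2 to 97.3 CPM with a median of 93.3 CPM on day 3, against 185 to 250.1 CPM with a median of 225 CPM on day 1 (-1.29 ± 0.06, adjusted p = 1.28e-19). Sema3a, a repellent that binds neuropilins, had 95 to 122 CPM with a median of 117 CPM on day 3, against 46 to 59.1 CPM with a median of 52 CPM on day 1 (1.12 ± 0.07, adjusted p = 4.97e-16). Each gene's days were separate, with the ligand higher and the receptor lower on day 3. Nrp1, the other neuropilin, fell (-0.81 ± 0.06, 5.43e-14), as did the midline repellent Slit1 (-0.92 ± 0.08, 7.34e-12). Of 29 genes of axon injury and regeneration 16 fell and 8 rose, with the transcription factor Sox11 at -0.75 ± 0.05 (1.66e-15) and the injury-induced peptidase Ecel1 at -1.26 ± 0.10 (1.41e-12).

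Receptors for trophic factors and cytokines were more often higher: 13 of 23 rose and 5 fell (median 0.37). Egfr, the EGF receptor, had 72 to 80.1 CPM with a median of 78.2 CPM on day 3, against 15.6 to 23.8 CPM with a median of 17.5 CPM on day 1 (2.07 ± 0.08, adjusted p = 1.09e-21). Osmr (gene 18414), the oncostatin M receptor, had 39.1 to 49.3 CPM with a median of 44 CPM on day 3, against 20.6 to 25 CPM with a median of 21.7 CPM on day 1 (1.01 ± 0.07, adjusted p = 1.42e-15). Lifr, the LIF receptor, and Il6st, the chain it shares with Osmr, rose too (0.66 ± 0.07, 1.26e-09 and 0.42 ± 0.04, 9.26e-11). Cntfr, the receptor chain for CNTF, named here after its value was seen, fell (-0.38 ± 0.06, adjusted p = 8.83e-07). Ret, the signalling receptor for GDNF, had 203 to 276 CPM with a median of 242 CPM on day 3, against 394 to 474 CPM with a median of 444 CPM on day 1 (-0.89 ± 0.08, adjusted p = 2.36e-12). All 6 day 3 libraries were below day 1 for Ret and for Ngfr and above day 1 for Egfr, Osmr, Lifr and Il6st. Of 28 gp130 receptor and STAT3 response genes 8 rose and 13 fell. Over all tested genes 28.0% fell and 28.4% rose, and the rises of this list lie near that share. The acute-phase inhibitor Serpina3n, of a family with near-identical members, had 52.9 to 86.6 CPM with a median of 54.9 CPM on day 3, against 9.74 to 15.1 CPM with a median of 12.1 CPM on day 1 (2.32 ± 0.20, adjusted p = 1.21e-11), and Socs2, a brake on cytokine signalling, differed by -0.70 ± 0.07 (2.92e-11). The leukaemia inhibitory factor Lif, a ligand of Lifr, had 9.36 to 15.4 CPM with a median of 13.2 CPM on day 3, against 2.98 to 5.35 CPM with a median of 3.99 CPM on day 1 (1.63 ± 0.17, adjusted p = 1.35e-10).

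All mitosis genes rose, 35 of 35 tested, with a median of 0.80, where 28.4% of all genes rose. Mki67 (gene 17345), a protein of dividing cells, had 208 to 297 CPM with a median of 237 CPM on day 3, against 101 to 151 CPM with a median of 113 CPM on day 1 (1.02 ± 0.11, adjusted p = 1.69e-09). Hmmr (gene 15366), a spindle protein, had 65.9 to 104 CPM with a median of 80.1 CPM on day 3, against 25.5 to 37.1 CPM with a median of 32.8 CPM on day 1 (1.31 ± 0.11, adjusted p = 2.28e-12). Anln (gene 68743), a scaffold of the cleavage furrow whose gene overlaps 9530077C05Rik, had 76.9 to 101 CPM with a median of 96.1 CPM on day 3, against 33.7 to 44.6 CPM with a median of 40.7 CPM on day 1 (1.22 ± 0.10, adjusted p = 4.35e-13). Each day 3 library exceeded each day 1 library in these 3, and the motor protein Cenpe (1.27 ± 0.10, 8.17e-13), the midzone protein Prc1 (0.75 ± 0.07, 2.28e-11), which overlaps Rccd1, and Top2a, which untangles chromosomes (0.74 ± 0.11, 3.93e-07), behaved alike. Of 39 DNA replication genes 25 rose and 14 did not pass (median 0.34), and those that rose include the polymerase Pole (0.72 ± 0.11, 5.25e-07), the helicase subunit Mcm4 (0.47 ± 0.08, 3.89e-06) and the nucleotide reductase Rrm1 (0.45 ± 0.08, 6.19e-06). Of 22 replication-dependent histones, which have near-identical copies, 4 rose, with Hist1h2bc at 0.77 ± 0.13 (2.97e-06), and the list's median was -0.39.

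Promoters of the mitosis genes are known to carry a short element called CHR, with the letters TTTGAA. A window of 250 bases before to 50 bases after each start, taken from RefSeq with build GRCm38.p6, held these letters on either strand for 23 of 32 mitosis gene promoters (71.88%), against 17.89% of 32851 promoters. The promoters of Anln and Hmmr, whose rises were among the largest of the list, are shown with the letters of the element (or of its reverse complement) in capitals. Both run 5′ to 3′ on the minus strand, Anln at chr9:22389157-22389456 with 2 matches and Hmmr at chr11:40733388-40733687 with 1.
Anln: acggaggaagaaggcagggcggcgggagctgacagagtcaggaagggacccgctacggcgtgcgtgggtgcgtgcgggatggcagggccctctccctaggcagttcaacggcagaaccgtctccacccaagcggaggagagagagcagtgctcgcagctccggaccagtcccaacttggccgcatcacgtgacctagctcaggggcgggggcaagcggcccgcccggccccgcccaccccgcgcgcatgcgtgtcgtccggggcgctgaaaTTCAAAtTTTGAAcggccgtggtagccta
Hmmr: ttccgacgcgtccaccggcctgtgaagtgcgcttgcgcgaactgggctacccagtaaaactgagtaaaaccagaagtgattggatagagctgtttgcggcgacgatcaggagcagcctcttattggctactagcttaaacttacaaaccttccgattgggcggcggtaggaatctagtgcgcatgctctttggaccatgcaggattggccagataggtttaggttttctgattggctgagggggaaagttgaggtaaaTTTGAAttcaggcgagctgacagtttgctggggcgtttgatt
A match is a description of the letters and not of a bound site. For the replication genes the E2F letters TTTGGCGC stood in 7 of 41 promoters (17.07%), against 0.5144% of all, and TTTCCCGC in 6 of 41 (14.63%), against 1.068%.

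Genes of neural progenitors rose more often than they fell, 14 and 10 of 29 (median 0.33), against 28.4% and 28.0% over all genes. Nes, the progenitor filament nestin, had 777 to 919.5 CPM with a median of 859.8 CPM on day 3, against 381 to 534 CPM with a median of 445 CPM on day 1 (0.92 ± 0.07, adjusted p = 7.27e-14). Fabp7, a lipid carrier of radial glia, had 882 to 1172 CPM with a median of 964 CPM on day 3, against 342 to 595 CPM with a median of 414 CPM on day 1 (1.18 ± 0.13, adjusted p = 7.89e-10). Shh, the ventral signal made by the floor plate, had 62 to 78.8 CPM with a median of 69.1 CPM on day 3, against 19.7 to 32.2 CPM with a median of 25.8 CPM on day 1 (1.46 ± 0.12, adjusted p = 7.11e-13). The groups did not overlap for Nes, Fabp7 or Shh. Pax6, which overlaps Elp4, rose (1.22 ± 0.11, 6.49e-12), and so did Sox2, which is shared with pluripotent cells (0.90 ± 0.11, 7.56e-09), while Id2, an inhibitor of helix-loop-helix factors, fell (-1.24 ± 0.10, 1.54e-13). Olig2, the factor of motor neuron progenitors, had 3.49 to 10.8 CPM with a median of 6.48 CPM on day 3, against 3.54 to 9.18 CPM with a median of 5.62 CPM on day 1, with overlapping groups (0.23 ± 0.29, adjusted p = 0.51). Of 7 tested floor plate markers 5 rose and 1 fell, among them Sulf1, which trims heparan sulfate (1.77 ± 0.12, 8.04e-15).

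Fate genes of spinal interneurons fell, 15 of 20 with 1 rising (median -0.64), where 28.0% of all genes fell and 28.4% rose. They included Lhx1 of dorsal and V1 neurons (-1.21 ± 0.11, 6.31e-12) and En1 of V1 neurons (-1.51 ± 0.17, 1.3e-09). Hox genes, which set position along the cord, split into 4 higher and 8 lower of 19, and without day 3 replicate 2 the count that rose was 2. Hoxb3, which overlaps Hoxb4, stood at 0.83 ± 0.08 (5.56e-11), Hoxd3, which overlaps Hoxd4, at -0.68 ± 0.08 (4.97e-09), and Hoxc4 at -0.19 ± 0.10 (0.0931). In the retinoic acid pathway 7 of 16 rose and 5 fell, and the falls lie near the share over all genes. Aldh1a1 and Aldh1a2, which make retinoic acid, rose (4.19 ± 0.36 and 3.94 ± 0.40), while Stra6, the retinol receptor, which overlaps Ccdc33, and Crabp1, a retinoic acid carrier, fell (-1.42 ± 0.12 and -1.43 ± 0.15).

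Most matrix genes and markers of mesenchyme rose. Of 33 tested collagen and matrix genes 29 rose and 1 fell, 17 of them by over 2-fold in the test against that fold, with a median of 1.48. Col8a1, a network collagen, had 219.6 to 291 CPM with a median of 286 CPM on day 3, against 39.8 to 63.3 CPM with a median of 50.1 CPM on day 1 (2.46 ± 0.10, adjusted p = 1.78e-21). Lama2, a laminin chain, had 27.7 to 44.5 CPM with a median of 40.2 CPM on day 3, against 4.92 to 7.73 CPM with a median of 6.54 CPM on day 1 (2.58 ± 0.12, adjusted p = 1.72e-20). The summed level of the matrix list was 7812 to 9404 CPM on day 3 and 3059 to 4001 CPM on day 1. Of 16 mesenchyme markers 13 rose and 3 did not pass (median 1.21), with the smooth muscle gene Tagln, which overlaps Pcsk7, at 1.23 ± 0.11 (3.41e-12), the collagens Col1a1 and Col1a2 at 0.79 ± 0.18 (0.000344) and 1.60 ± 0.14 (8.17e-12), and Loxl1, a crosslinking enzyme, at 2.16 ± 0.16 (1.64e-14). That list summed to 1989 to 2644 CPM on day 3 and 860.6 to 1292 CPM on day 1.

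Astrocyte markers had a median of 0.98, with 13 of 17 higher and 2 lower. Slc1a3, the glutamate carrier GLAST, had 161 to 246 CPM with a median of 171 CPM on day 3, against 36.2 to 66.7 CPM with a median of 48.1 CPM on day 1 (1.92 ± 0.17, adjusted p = 1.44e-11). Aldoc, an aldolase of astrocytes, had 48.9 to 71.8 CPM with a median of 54.8 CPM on day 3, against 6.73 to 14.9 CPM with a median of 11.1 CPM on day 1 (2.38 ± 0.15, adjusted p = 2.64e-15). Fgfr3, a growth factor receptor of astrocytes and progenitors, differed by 1.04 ± 0.09 (2.4e-12). Gfap, the filament that defines mature astrocytes, was near the limit of detection on both days, with 0.0742 to 1.4 CPM on day 3, against 0 to 0.244 CPM on day 1. Its groups overlapped through day 3 replicate 5 alone, and the other day 3 libraries lay above every day 1 library. Radial glia and progenitors also express Slc1a3, Fgfr3 and Aldoc, so the list does not separate these cells from astrocytes.

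Microglial markers were low: 13 of 20 were too low to test, of the 7 tested 0 passed with edgeR (1 had an unadjusted p below 0.05, and 1 passed with DESeq2), and C1qa, C1qb, C1qc and Trem2 had no read in any of the 12 libraries. Aif1, a microglial protein, had 0.0936 to 0.693 CPM on day 3, against 0 to 0.508 CPM on day 1 and was not tested. Of 16 oligodendrocyte lineage markers 4 rose and 3 fell, not above the shares over all genes (28.4% and 28.0%). The myelin gene Mbp stood at -0.66 ± 0.09 (6.85e-08) and the lineage factor Olig1 at 2.00 ± 0.42 (0.00011). The count of this list that fell was 1 without day 1 replicate 2, day 1 replicate 5 or day 3 replicate 3. Of 10 endothelial and blood markers 2 rose, such as Eng, which overlaps Fpgs (1.5 ± 0.18, 2.38e-09), and 2 fell (0 to 1 without day 3 replicates 1, 2, 4 or 6 or day 1 replicates 1 or 2). Neural crest markers numbered 3 higher and 6 lower of 12, with the crest factor Tcfap2a at 1.64 ± 0.18 (6.38e-10). Muscle markers fell in 5 of 10, led by the actin Actc1 (-1.72 ± 0.23, 6.42e-08), and rose in 1. Of 12 epithelial markers 4 fell and 1 rose, with the keratin Krt18 at -1.75 ± 0.48 (0.00248) and overlapping groups. Of 9 tested markers of pluripotent cells 2 rose and 3 fell, with Lin28a, an RNA-binding protein of early embryos, at -1.34 ± 0.13 (6.86e-11). The counts of the endothelial and pluripotent lists also lie near the shares over all genes.

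**Figure D2:**
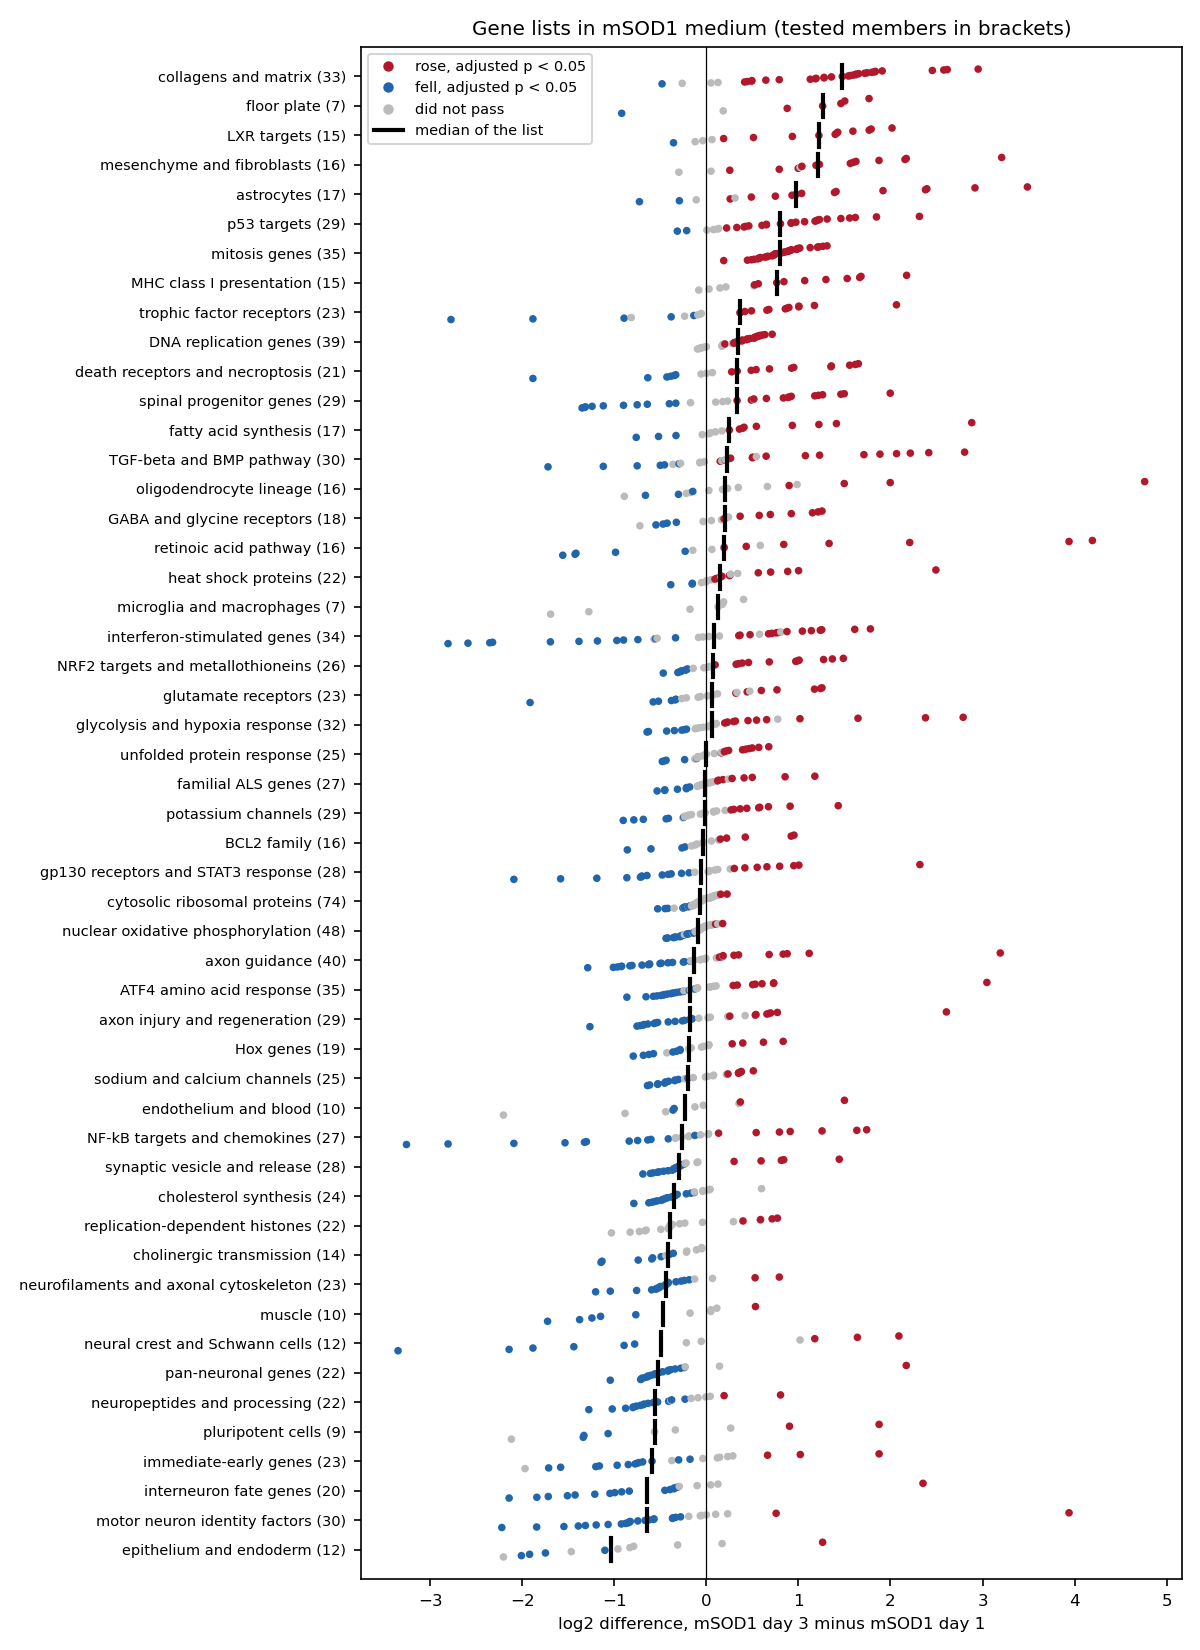
Log2 difference, mSOD1 day 3 minus mSOD1 day 1, of each tested member of 51 gene lists. Each point is 1 gene, red where it rose and blue where it fell at an adjusted p below 0.05 and grey otherwise, the black bar is the median of the list, and lists run in order of that median. The collagens and matrix list has a median of 1.48 and the motor neuron identity list one of -0.64.

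Targets of the DNA damage factor p53 rose, 23 of 29 with 2 falling and a median of 0.81, and 8 passed the test against a 2-fold change. Cdkn1a (gene 12575), the cell cycle inhibitor p21, had 171 to 218 CPM with a median of 208 CPM on day 3, against 92.5 to 109 CPM with a median of 103 CPM on day 1 (0.97 ± 0.07, adjusted p = 1.66e-15). Ccng1, cyclin G1, had 888 to 1165 CPM with a median of 1038 CPM on day 3, against 390.3 to 486 CPM with a median of 464 CPM on day 1 (1.20 ± 0.07, adjusted p = 1.24e-17). Perp, a membrane protein of p53-driven death, had 47.8 to 60.7 CPM with a median of 54.6 CPM on day 3, against 11.1 to 17.1 CPM with a median of 15.8 CPM on day 1 (1.85 ± 0.09, adjusted p = 4.09e-19). The day 3 and day 1 libraries were apart for all 3 genes. The death receptors Fas (gene 14102) and Tnfrsf10b (gene 21933) are p53 targets too, and they rose (1.62 ± 0.12, adjusted p = 4.21e-14 and 1.56 ± 0.09, adjusted p = 1.42e-17). Of 21 genes of death receptors and necroptosis 12 rose and 6 fell, and Ngfr was among those that fell. In the BCL2 family 5 of 16 rose and 4 fell, near the shares over all genes (28.4% and 28.0%). The protective Bcl2 stood at 0.95 ± 0.06 (1.27e-15), and the death-promoting members Pmaip1 at 0.92 ± 0.16 (4.13e-06) and Bcl2l11, which overlaps Acoxl, at -0.60 ± 0.10 (1.89e-06).

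Genes activated by liver X receptors, which sense oxidised sterols, rose in 11 of 15 with 1 falling, and the median was 1.22. Abca1 (gene 11303), which exports cholesterol, had 275 to 334 CPM with a median of 307 CPM on day 3, against 80.7 to 117 CPM with a median of 101 CPM on day 1 (1.59 ± 0.10, adjusted p = 3.84e-16). Abcg1 (gene 11307), a sterol exporter, had 15.8 to 19.2 CPM with a median of 17.3 CPM on day 3, against 4.48 to 7.75 CPM with a median of 6.93 CPM on day 1 (1.40 ± 0.10, adjusted p = 7.51e-15). Smpdl3a, a phosphodiesterase, differed by 2.02 ± 0.15 (2.28e-14). The lipid regulator Srebf1, which overlaps Rai1, had 153 to 189 CPM with a median of 169 CPM on day 3, against 53.1 to 72.3 CPM with a median of 63.3 CPM on day 1 (1.41 ± 0.07, adjusted p = 1.28e-18). The desaturases Scd2 and Scd1 rose (0.93 ± 0.04, adjusted p = 9.92e-21 and 1.22 ± 0.07, adjusted p = 1.02e-16), and no library of day 1 reached day 3 in either.

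Cholesterol synthesis went the other way, with 18 of 24 lower, 6 not passing and a median of -0.35. Srebf2, the regulator of this pathway, had 199 to 235 CPM with a median of 218 CPM on day 3, against 315 to 349.7 CPM with a median of 329.6 CPM on day 1 (-0.62 ± 0.05, adjusted p = 4.09e-13). Every day 3 library of Srebf2 lay below every day 1 library. Cyp51, a sterol demethylase, and Insig1, which retains the SREBP factors in the endoplasmic reticulum, were lower too (-0.53 ± 0.05, 1.1e-10 and -0.38 ± 0.05, 4.47e-09). Of 17 fatty acid synthesis genes 9 rose and 3 fell, and Acly, which supplies acetyl-CoA to both pathways, was lower (-0.76 ± 0.05, adjusted p = 9.93e-17). The sterol element letters TCACNCCAC were in 0 of 19 promoters of the cholesterol list and in 1.242% of all promoters.

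Stress responses were mixed in direction, where 28.4% of all tested genes rose and 28.0% fell. The rises of the ATF4 list and the falls of the other lists lie near or below these shares. Of 35 genes of the ATF4 amino acid response 17 fell and 8 rose (median -0.17). Asns, asparagine synthetase, fell (-0.49 ± 0.06, adjusted p = 3.47e-09), as did the tRNA synthetase Gars (-0.46 ± 0.05, 7.15e-11), while Gpt2, a transaminase (0.73 ± 0.07, 4.16e-12), and Nupr1, a stress cofactor (3.05 ± 0.33, 3.06e-10), rose. Of 25 genes of the unfolded protein response 10 rose and 5 fell, with the chaperones Canx at 0.50 ± 0.05 (2.12e-11) and Dnajc3 at 0.68 ± 0.06 (4.92e-13) and the degradation factor Herpud1 at -0.48 ± 0.06 (1.39e-08). Heat shock proteins rose in 11 of 22 and fell in 3. The small heat shock protein Cryab, which overlaps 2310030G06Rik and Hspb2 and is also made by astrocytes, had 35.3 to 57.5 CPM with a median of 47.8 CPM on day 3, against 7.22 to 10.2 CPM with a median of 8.08 CPM on day 1 (2.49 ± 0.17, adjusted p = 5.64e-15), and the cochaperone Bag3 stood at 0.88 ± 0.09 (1.6e-10). Antioxidant genes of the NRF2 factor and metallothioneins numbered 12 higher and 8 lower of 26, with the factor itself, Nfe2l2, at 0.97 ± 0.09 (8.84e-12) and the brain metallothionein Mt3 at 1.49 ± 0.11 (2.27e-14).

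Genes mutated in familial ALS showed no common direction, 8 higher and 8 lower of 27 (median -0.01), near the shares over all genes (28.4% and 28.0%). Chmp2b, a membrane remodelling protein, stood at 0.86 ± 0.06 (8.08e-15) and Optn, an autophagy receptor, at -0.53 ± 0.09 (1.48e-06). Of 48 nuclear genes of oxidative phosphorylation 19 fell and 2 rose (median -0.09), with Cox7c at -0.35 ± 0.06 (1.7e-05). Glycolysis and hypoxia genes rose in 12 of 32 and fell in 7, with the collagen hydroxylase P4ha1 at 1.02 ± 0.08 (5.43e-14). Of 74 ribosomal proteins, many with near-identical copies, 61 did not pass, 11 fell and 2 rose, both below the shares over all genes. Rpl28 stood at -0.42 ± 0.08 (1.49e-05). The count of this list that fell was 5 to 7 without day 3 replicates 1 or 3 or day 1 replicates 4 or 5. In the TGF-beta and BMP pathway 14 of 30 rose and 6 fell. The ligand Bmp6, which overlaps Txndc5, had 23.6 to 30.6 CPM with a median of 26.4 CPM on day 3, against 3.1 to 5.93 CPM with a median of 3.61 CPM on day 1 (2.81 ± 0.14, adjusted p = 2.61e-19), the activin antagonist Fst stood at 1.71 ± 0.09 (6.78e-19), and the receptors Tgfbr2 and Tgfbr1 at 2.22 ± 0.16 (1.77e-14) and -0.50 ± 0.04 (6.04e-13).

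Immediate-early genes, which neurons switch on within minutes of activity, fell in 13 of 23 and rose in 3 (median -0.59, 5 rose when only the groups compared entered the fit). Nr4a1, a nuclear receptor, had 5.61 to 7.55 CPM with a median of 7.29 CPM on day 3, against 11.7 to 20.3 CPM with a median of 16.3 CPM on day 1 (-1.20 ± 0.14, adjusted p = 2.03e-09). Junb, a partner of Fos, had 10.9 to 14.3 CPM with a median of 12.7 CPM on day 3, against 27.3 to 51.9 CPM with a median of 37.8 CPM on day 1 (-1.58 ± 0.17, adjusted p = 6.09e-10). The kinase Sik1 fell (-0.77 ± 0.07, 2.16e-12). Bdnf, the neurotrophin that was also supplied in the medium, had 13.8 to 18.2 CPM with a median of 15.8 CPM on day 3, against 7.45 to 8.54 CPM with a median of 7.79 CPM on day 1 (1.02 ± 0.11, adjusted p = 3.25e-10), and Btg2, a p53 target with antiproliferative action, differed by 0.67 ± 0.09 (2.49e-08).

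Interferon-stimulated genes are switched on through ISGF3, a complex with the DNA-binding subunit Irf9 that binds an element called ISRE with the letters GAAA, any 2 bases, and GAAA again. In the same RefSeq windows 15 of 30 promoters of the list held these letters on either strand (50%), against 3.443% of all promoters. The promoters of Cxcl10, Ddx58 and Ifih1 hold 1 match each, in capitals, and are shown because the first gene fell and the other 2 rose on day 3. All run 5′ to 3′ on the minus strand, Cxcl10 at chr5:92348840-92349139, Ddx58 at chr4:40239776-40240075 and Ifih1 at chr2:62646206-62646505.
Cxcl10: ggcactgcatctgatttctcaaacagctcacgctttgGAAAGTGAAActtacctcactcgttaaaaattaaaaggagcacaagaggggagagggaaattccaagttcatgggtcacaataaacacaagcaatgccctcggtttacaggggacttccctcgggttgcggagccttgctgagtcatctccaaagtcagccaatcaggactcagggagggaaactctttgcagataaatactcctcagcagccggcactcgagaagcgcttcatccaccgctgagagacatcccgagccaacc
Ddx58: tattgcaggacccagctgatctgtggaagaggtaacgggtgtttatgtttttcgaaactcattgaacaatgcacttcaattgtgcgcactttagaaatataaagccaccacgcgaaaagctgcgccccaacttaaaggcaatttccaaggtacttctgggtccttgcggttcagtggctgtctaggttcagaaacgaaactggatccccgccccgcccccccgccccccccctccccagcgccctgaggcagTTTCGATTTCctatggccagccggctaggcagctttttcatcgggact
Ifih1: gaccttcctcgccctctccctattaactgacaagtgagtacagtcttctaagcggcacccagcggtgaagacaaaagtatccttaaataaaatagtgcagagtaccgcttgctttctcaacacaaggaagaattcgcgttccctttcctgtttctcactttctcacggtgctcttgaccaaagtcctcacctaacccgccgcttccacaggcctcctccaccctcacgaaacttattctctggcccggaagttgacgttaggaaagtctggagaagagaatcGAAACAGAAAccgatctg
Measured from the start, the match begins at -213 in Cxcl10, at 2 in Ddx58 and at 32 in Ifih1.

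Of 34 tested interferon-stimulated genes 14 rose and 12 fell in mSOD1 medium, with a median of 0.09. The shares over all genes were 28.4% rising and 28.0% falling. Usp18 (gene 24110), a protease that restrains interferon receptors, had 2.86 to 4.01 CPM with a median of 3.2 CPM on day 3, against 11.5 to 20.6 CPM with a median of 17.3 CPM on day 1 (-2.35 ± 0.21, adjusted p = 2.61e-12). Irf9 (gene 16391), the DNA-binding subunit of ISGF3, had 21.8 to 28.5 CPM with a median of 23.6 CPM on day 3, against 36.5 to 47.5 CPM with a median of 39.8 CPM on day 1 (-0.74 ± 0.07, adjusted p = 1.91e-11). In both genes every day 3 library was below every day 1 library. Oasl2, an antiviral protein, and Cmpk2, a nucleotide kinase induced by interferon, also fell (-1.69 ± 0.21, adjusted p = 2.13e-08 and -0.97 ± 0.08, adjusted p = 8.5e-13).

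Sensors and antiviral effectors were among those that rose. Ddx58 (gene 230073), the RNA sensor RIG-I, had 22.9 to 29.2 CPM with a median of 27.5 CPM on day 3, against 14.1 to 17.6 CPM with a median of 15.9 CPM on day 1 (0.79 ± 0.10, adjusted p = 1.29e-08). Ifih1 (gene 71586), the RNA sensor MDA5, had 7.46 to 10.9 CPM with a median of 9.46 CPM on day 3, against 2.66 to 5.86 CPM with a median of 4.73 CPM on day 1 (1.04 ± 0.17, adjusted p = 1.82e-06). Ifit2, which blocks translation, had 10.7 to 13.9 CPM with a median of 12.1 CPM on day 3, against 2.54 to 4.31 CPM with a median of 3.51 CPM on day 1 (1.78 ± 0.14, adjusted p = 1.25e-13). The days were separate for all 3. Parp14, an ADP-ribosyltransferase, rose (1.61 ± 0.18, 1.22e-09), and so did Irf1, an interferon regulatory factor (0.35 ± 0.12, 0.0115), whose groups overlapped and whose adjusted p was 0.0527 without day 1 replicate 6. Bst2, which tethers virions, stood at 0.37 ± 0.16 (0.0451), with overlapping groups and an adjusted p above 0.05 in 8 of the other settings. The MHC class I presentation list was one-sided, 10 of 15 higher and 5 not passing (median 0.76). B2m, the light chain, which overlaps Patl2, had 53 to 65.9 CPM with a median of 61 CPM on day 3, against 24.1 to 34.3 CPM with a median of 29.2 CPM on day 1 (1.07 ± 0.15, adjusted p = 1.98e-07), Tapbp, a loading factor, stood at 0.84 ± 0.09 (6.53e-10) and the peptide trimmer Erap1, which overlaps Cast, at 1.3 ± 0.09 (1.22e-14).

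Chemokines and NF-kB targets split into 12 lower and 7 higher of 27. Over all tested genes 28.0% fell and 28.4% rose, and the rises of this list lie near that share. Ccl2 (gene 20296), which draws monocytes, had 5.15 to 9.39 CPM with a median of 7.05 CPM on day 3, against 17.1 to 58.5 CPM with a median of 26.9 CPM on day 1 (-2.09 ± 0.31, adjusted p = 6.73e-07). Cxcl10 (gene 15945), which draws T cells and overlaps Art3, had 1.03 to 3.34 CPM with a median of 1.91 CPM on day 3, against 8.71 to 22.1 CPM with a median of 13.8 CPM on day 1 (-2.81 ± 0.39, adjusted p = 2.18e-07). Cxcl1, which draws neutrophils, had 0.0868 to 0.371 CPM with a median of 0.214 CPM on day 3, against 1.12 to 3.9 CPM with a median of 2.3 CPM on day 1 (-3.26 ± 0.44, adjusted p = 5.08e-08). The 3 chemokines were lower in every day 3 library. Nfkbia, the inhibitor that NF-kB induces, had 10.6 to 13.7 CPM with a median of 12.3 CPM on day 3, against 13 to 53.3 CPM with a median of 30.9 CPM on day 1 (-1.3 ± 0.19, adjusted p = 5.73e-07), and its groups overlapped. In contrast Csf1, a growth factor of microglia, and Vcam1, an adhesion molecule, rose (0.79 ± 0.08, adjusted p = 2.3e-11 and 0.91 ± 0.10, adjusted p = 3.35e-10).

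How far this change over time was shared with the other media was examined next. Between the days 9360 genes changed in NTg medium (61.6% of those tested, 30.8% higher and 30.8% lower) and 9396 in wtSOD1 medium (61.8%, 31.1% higher and 30.7% lower). Across the 15207 genes, which are not independent replicates, the log2 differences of mSOD1 medium had a Pearson r of 0.90 with those of NTg medium and 0.89 with those of wtSOD1 medium, from separate libraries. The falls of motor neuron genes were found in all 3 media, with 22 of 30 identity factors lower in mSOD1, 21 in NTg and 21 in wtSOD1 medium. The 35 mitosis genes rose in each medium, with a median of 0.80 in mSOD1, 1.04 in NTg and 1.08 in wtSOD1 medium. For p53 targets the medians were 0.81, 0.84 and 0.85 in the same order. Pan-neuronal genes had a median of -0.52 in mSOD1, -0.74 in NTg and -0.77 in wtSOD1 medium, and for 0 of the 22 did the change over time differ from that in NTg medium with edgeR or DESeq2 (10 had an unadjusted p below 0.05 with edgeR). Against wtSOD1 medium 0 of the 22 differed with edgeR and 2 with DESeq2, and 13 had an unadjusted p below 0.05 with edgeR.

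The change over time itself differed between mSOD1 and NTg medium for 35 genes (0.23%), 13 with a higher (0.0855%) and 22 with a lower (0.145%) log2 difference in mSOD1 medium. Against wtSOD1 medium 90 genes differed (0.592%), 69 higher (0.454%) and 21 lower (0.138%). The 2 tests share the 12 mSOD1 libraries. Both counts depend on the settings: DESeq2 gave 99 and 233 genes, experiment number as a block 406 and 599, and the first count was 70 without a pair of libraries that stood apart, NTg day 1 replicate 6 and wtSOD1 day 1 replicate 4. In the order named, this pair held 4.39 M and 88.9 M reads in genes, the lowest and the highest depth of the 36 libraries. Leaving out 1 mSOD1 library moved the count against NTg by over 1.5 times for day 3 replicates 2 (60) and 3 (20) and day 1 replicates 3 (58) and 4 (20). Against wtSOD1 it did so for day 3 replicates 1 (41), 2 (222), 3 (46) and 4 (140) and day 1 replicates 2 (47) and 6 (144).

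Of the 22 genes with a lower change in mSOD1 than in NTg medium, 11 belong to the 34 interferon-stimulated genes, where 0.145% of all genes were called in that direction. Against wtSOD1 medium 5 of the 34 had a lower change in mSOD1 medium, where 0.138% of all genes did, and the median difference between changes was -0.642, against -0.998 for NTg medium. In NTg medium 19 of these 34 rose and 1 fell (median 1.06), and in wtSOD1 medium 18 rose and 5 fell (median 0.81). Usp18 averaged 3.3 ± 0.384 CPM on day 3, against 16.9 ± 3.53 CPM on day 1 in mSOD1 medium (SD, n = 6) and 3.35 ± 0.593 CPM on day 3, against 3.7 ± 3.21 CPM on day 1 in NTg medium, a difference between the log2 changes of -2.46 ± 0.31 (adjusted p = 1.09e-05). The NTg day 1 mean of Usp18 rests in part on replicate 6, which stood apart, at 10.1 CPM, and the other 5 had 1.48 to 3.3 CPM with a mean of 2.41 ± 0.649 CPM (SD, n = 5). Without both libraries that stood apart Usp18 rose in NTg medium (0.43 ± 0.17, adjusted p = 0.0246), and the difference between changes was -2.78 ± 0.22 (adjusted p = 7.92e-11). Irf9 averaged 24.2 ± 2.28 CPM on day 3, against 40.5 ± 3.96 CPM on day 1 in mSOD1 medium and 18.9 ± 1.76 CPM on day 3, against 20.4 ± 2.11 CPM on day 1 in NTg medium (-0.65 ± 0.10, adjusted p = 0.000628). The larger gap between mSOD1 and NTg medium was on day 1 for both genes, with mSOD1 medium higher. Ddx58 averaged 27.1 ± 2.27 CPM on day 3, against 15.7 ± 1.22 CPM on day 1 in mSOD1 medium and 25.8 ± 2.13 CPM on day 3, against 7.47 ± 1.57 CPM on day 1 in NTg medium (-1.03 ± 0.15, adjusted p = 0.000109). Ifih1 averaged 9.29 ± 1.31 CPM on day 3, against 4.51 ± 1.07 CPM on day 1 in mSOD1 medium and 9.46 ± 1.01 CPM on day 3, against 1.76 ± 0.749 CPM on day 1 in NTg medium (-1.49 ± 0.26, adjusted p = 0.00295). These sensors rose in mSOD1 and NTg medium, from a higher day 1 mean in mSOD1 medium. Against wtSOD1 medium the changes of Usp18 and Ddx58 differed (-2.17 and -0.64), while those of Irf9 and Ifih1 did not pass. Without both libraries that stood apart, Irf9 gave -0.34 ± 0.10 (adjusted p = 0.123) and Ifih1 -0.74 ± 0.24 (adjusted p = 0.178) against wtSOD1. On day 1 Irf9 averaged 26.4 CPM in wtSOD1 medium.

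**Figure D3:**
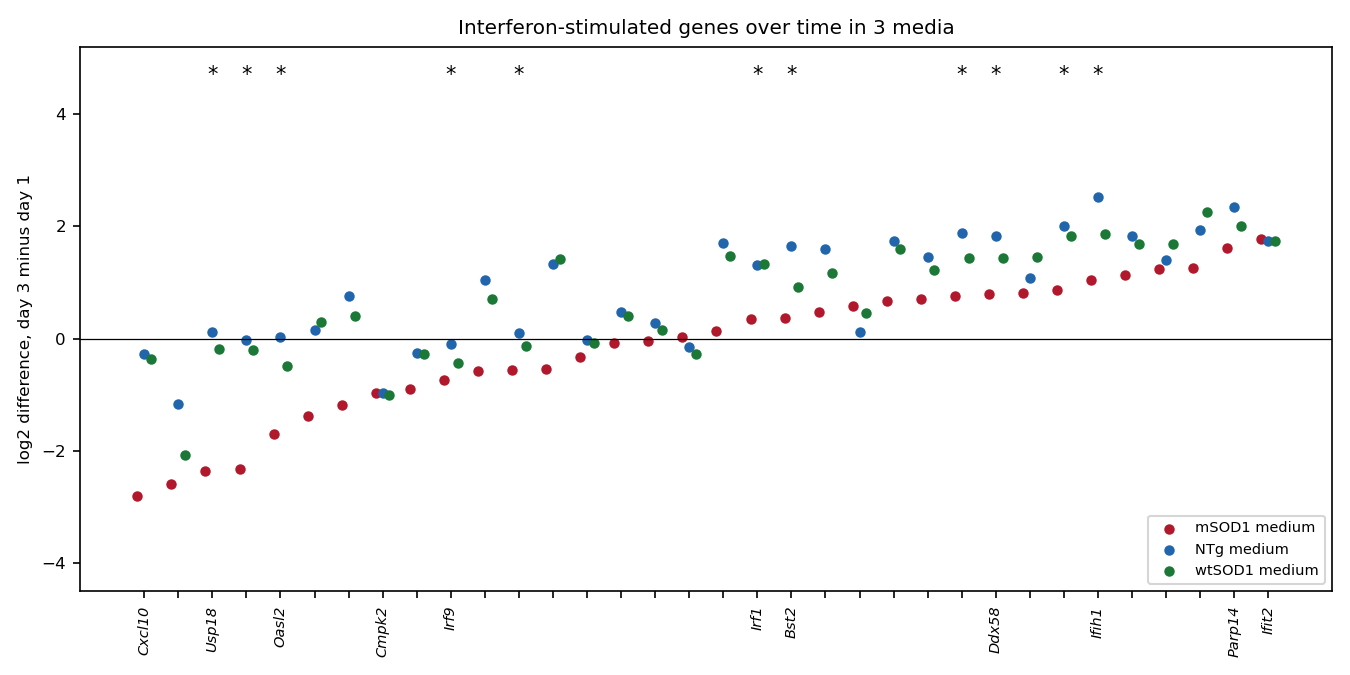
Log2 difference, day 3 minus day 1, of the 34 tested interferon-stimulated genes in mSOD1, NTg and wtSOD1 medium. Genes run in order of the mSOD1 value, names stand under those described in the text, and an asterisk marks the 11 genes whose change differed between mSOD1 and NTg medium at an adjusted p below 0.05. For those 11 the mSOD1 point lies below the NTg point.

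Several immune genes, some of them already counted in the interferon list, such as Bst2, had a lower change in mSOD1 than in NTg medium. Irf1 differed by -0.96 ± 0.17 (adjusted p = 0.00447), Oasl2 by -1.71 ± 0.33 (adjusted p = 0.00952) and Bst2 by -1.28 ± 0.24 (adjusted p = 0.00471). Against wtSOD1 medium Irf1 passed as well, while Oasl2 and Bst2 did not in the main test. Oasl2 passed there without both libraries that stood apart (-1.13 ± 0.25, adjusted p = 0.0268). Nfkbia differed by -1.53 ± 0.28 (adjusted p = 0.00636), with an adjusted p of 0.0725 when only the 4 groups entered the fit. Ccl2 averaged 7.11 ± 1.56 CPM on day 3, against 30.6 ± 14.5 CPM on day 1 in mSOD1 medium and 6.52 ± 0.685 CPM on day 3, against 6.71 ± 8.27 CPM on day 1 in NTg medium (-2.46 ± 0.47, adjusted p = 0.00952). Replicate 6 of NTg day 1 held 23.6 CPM of Ccl2, while the other 5 had 2.77 to 4.17 CPM with a mean of 3.34 ± 0.529 CPM (SD, n = 5). The same library held 13 CPM of Oasl2, 12 CPM of Cxcl10 and 19.3 CPM of Nfkbia, each above the other 5. Those values and its Ccl2 lay within the ranges of mSOD1 day 1. Its Irf9 (24 CPM) and Ddx58 (9.67 CPM) lay below the ranges of mSOD1 day 1. Without both libraries that stood apart Ccl2 rose in NTg medium (0.96 ± 0.23, adjusted p = 0.000491), and the difference between changes was -3.05 ± 0.30 (adjusted p = 4.82e-08). Outside the lists, the GTPase Rnd1 differed by -1.15 ± 0.20 (adjusted p = 0.00202) and the peptide-binding protein Crhbp by -0.96 ± 0.18 (adjusted p = 0.00471). Crhbp itself did not pass over time in mSOD1 medium (-0.12 ± 0.13, adjusted p = 0.428).

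Genes with a higher change in mSOD1 medium included a cytokine receptor and a retinol enzyme. Osmr averaged 44.4 ± 3.87 CPM on day 3, against 22 ± 1.65 CPM on day 1 in mSOD1 medium, 30.6 ± 2.75 CPM on day 3, against 26.9 ± 0.864 CPM on day 1 in NTg medium and 30.8 ± 2.37 CPM on day 3, against 26.2 ± 2.23 CPM on day 1 in wtSOD1 medium. The difference between changes was 0.82 ± 0.10 (adjusted p = 2.72e-06) against NTg and 0.76 ± 0.09 (adjusted p = 5.97e-06) against wtSOD1. On day 1 the mSOD1 mean was the lowest of the 3 media and on day 3 the highest. Rdh10, which oxidises retinol, averaged 23.9 ± 1.25 CPM on day 3, against 17.6 ± 2.48 CPM on day 1 in mSOD1 medium, 17.3 ± 1.68 CPM on day 3, against 20.8 ± 1.78 CPM on day 1 in NTg medium and 17.3 ± 1.28 CPM on day 3, against 23.6 ± 1.22 CPM on day 1 in wtSOD1 medium (0.69 ± 0.11, adjusted p = 0.000628 against NTg and 0.88 ± 0.11, adjusted p = 5.97e-06 against wtSOD1). Its mean was higher on day 3 in mSOD1 medium and lower on day 3 in the other 2 media. Csf2rb2, a receptor chain of the interleukin-3 family with a near-identical paralog, differed by 1.52 ± 0.31 (adjusted p = 0.0159) against NTg and by 1.88 ± 0.31 (adjusted p = 0.000525) against wtSOD1. Its level was low, with day 1 means of 1.97 CPM in NTg and 1.62 CPM in wtSOD1 medium. The kinase Nek7 differed by 0.38 ± 0.08 (adjusted p = 0.0216) against NTg and 0.60 ± 0.08 (adjusted p = 1.36e-05) against wtSOD1.

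**Figure D4:**
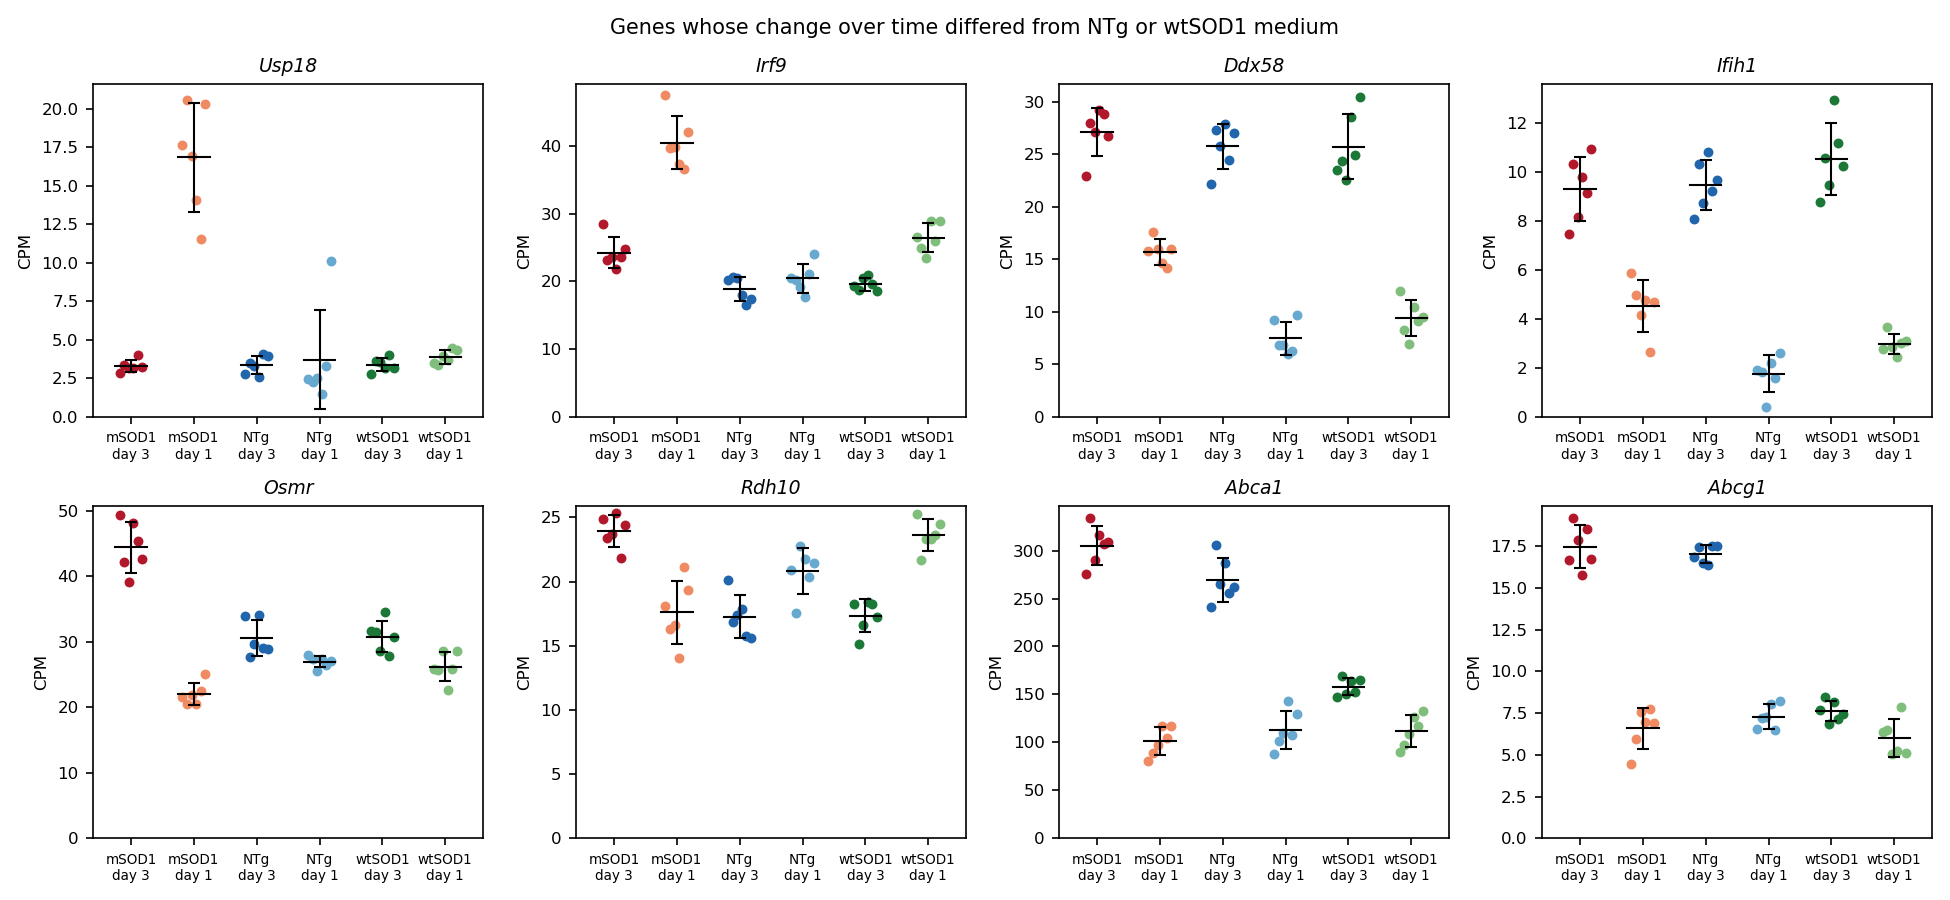
Levels of 8 genes in the 3 media, in CPM from 0, with day 3 left of day 1 within each medium. Each point is 1 of 6 libraries, and the line and bar show the mean and SD. On day 1 Usp18, Irf9, Ddx58 and Ifih1 have higher means in mSOD1 than in NTg medium, Osmr has its highest mean on day 3 of mSOD1 medium, and Abca1 and Abcg1 are higher on day 3 of mSOD1 and NTg medium than on day 3 of wtSOD1 medium.

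The sterol exporters set mSOD1 medium apart from wtSOD1 medium and not from NTg medium at the threshold used. Abca1 averaged 305 ± 20.5 CPM on day 3, against 101 ± 14.8 CPM on day 1 in mSOD1 medium, 158 ± 9.09 CPM on day 3, against 112 ± 16.4 CPM on day 1 in wtSOD1 medium and 269 ± 23.2 CPM on day 3, against 113 ± 19.7 CPM on day 1 in NTg medium. The difference between changes was 1.09 ± 0.13 (adjusted p = 5.97e-06) against wtSOD1 and 0.33 ± 0.13 (adjusted p = 0.253) against NTg. Abcg1 gave 1.02 ± 0.14 (adjusted p = 3.89e-05) against wtSOD1 and 0.15 ± 0.14 (adjusted p = 0.644) against NTg. The list of liver X receptor targets had a median change of 1.22 in mSOD1, 1.25 in NTg and 0.38 in wtSOD1 medium. By gene, however, 9 of its 15 members rose in wtSOD1 medium, 2 differed from wtSOD1 in their change, and the median difference between changes was 0.10. Prdm1, a transcriptional repressor, gave 1.20 ± 0.19 (adjusted p = 0.000401) against wtSOD1, the clock gene Bhlhe41 gave 1.27 ± 0.22 (adjusted p = 0.00193) and Pcsk2 gave 0.65 ± 0.11 (adjusted p = 0.00114).

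**Figure D5:**
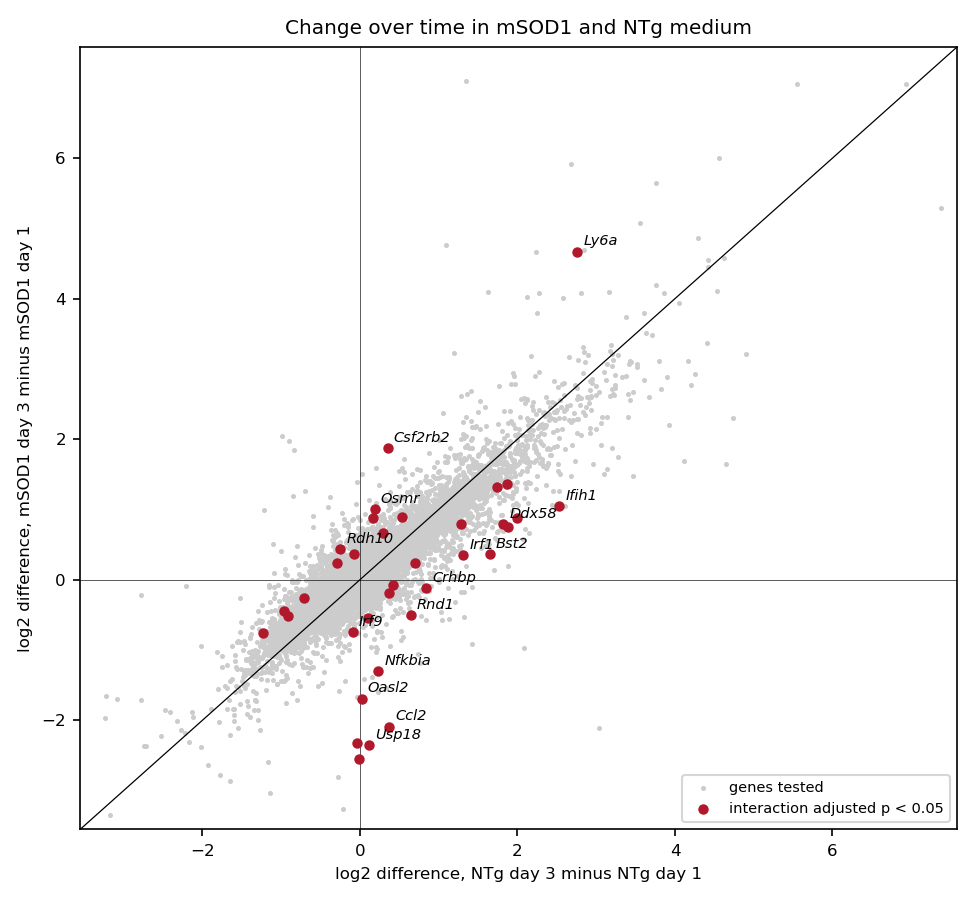
Log2 difference, day 3 minus day 1, in mSOD1 medium (vertical axis) against that in NTg medium (horizontal axis) for 15207 genes. Red points are the 35 genes whose change differed between these media at an adjusted p below 0.05, and the diagonal marks equal change. Usp18, Ccl2, Oasl2 and Nfkbia lie below the diagonal and Osmr, Csf2rb2 and Ly6a above it.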

How the data were processed

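RNA sequencing was done on 36 libraries in 6 groups of 6, per the labels. Per the file headers, the deposited values are read counts by gene, in whole numbers. TopHat 1.3.3, DESeq and build mm9 appear in the submitters' processing notes. How reads were counted, with which annotation and whether by strand, is not stated, so genes that overlap in the RefSeq table of GRCm38.p6 and near-identical paralogs are named as uncertain. A second deposited column holds the authors' transformed values on a log2-like scale, and it served as an alternative only.

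Robust quasi-likelihood F-tests of edgeR 4.0.16 (R 4.3.3), after TMM scaling and filterByExpr by group, were run on the counts. A single model of 6 group means, without a block, took in all 36 libraries and left 30 residual degrees of freedom. P-values were adjusted by Benjamini-Hochberg over the 15207 genes, at a threshold of 0.05. Calls of over 2-fold used glmTreat, and differences between media in the change over time are interaction terms of the same fit. CPM were computed on TMM-scaled library sizes. Alternatives used DESeq2 1.42.0, limma 3.58.1, other scalings and filters, the experiment number as a block, and single libraries left out. The scripts were tested on simulated data.

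The comparison and the 51 lists, with 1371 entries of which 5 of 1278 distinct symbols matched no gene, were chosen with earlier results of these data known. Named genes were up to 12 per direction by fold among genes that passed, averaged at least 10 CPM and had groups without overlap, up to 6 members with the lowest p of each list, up to 12 genes with the lowest p of each interaction, and a set of marker genes whatever their value, and some genes that this rule picks are not reported here. The CHR letters were searched after the values of the mitosis genes were seen, and the other promoter letters were chosen with the lists. Promoter windows came from a RefSeq table, in which 26 of 34 interferon genes, 33 of 39 replication genes, 16 of 24 cholesterol genes and 30 of 35 mitosis genes had an entry.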

Additional observations from a re-analysis of the deposited data

Results flagged for a closer look

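Among the 368 groups of 6 values examined for the named genes in mSOD1 medium, 25 held a library whose gap to its nearest neighbour was, as a share of the range, above Dixon's critical value at the 95% level. Chance flags about 1 in 20 groups. Day 3 replicate 1 held 11 of the 25: Col4a6 at 57.4 CPM, Reg3b at 84.1 CPM, Rhoj at 19.3 CPM, Nefh at 107 CPM, Tubb2b at 1804 CPM, Il6st at 288 CPM, Serpina3n at 86.6 CPM, Scg2 at 241 CPM, Scd2 at 2164 CPM, Aldoc at 71.8 CPM and Col8a1 at 219.6 CPM. In day 3 replicate 3 it was Grm8 at 36.8 CPM and Bcl2 at 80.3 CPM. In day 3 replicate 2 it was Nr4a1 at 5.61 CPM and Fgfr3 at 157 CPM. In day 1 replicate 5 it was Ly6a at 1.6 CPM, Stra6 at 19.1 CPM, Chmp2b at 31.8 CPM and Fst at 22.9 CPM. In day 1 replicate 4 it was Ccl2 at 58.5 CPM, Hoxc4 at 27.3 CPM and Bmp6 at 5.93 CPM. In day 1 replicate 3 it was Nfe2l2 at 12.8 CPM. In day 1 replicate 2 it was Gfap at 0.244 CPM. In day 1 replicate 1 it was Scd1 at 71.5 CPM. 

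The change over time differed between media for 39 values of the named genes, each past an adjusted p of 0.05 in the interaction test. Most of these values belong to genes named for having the lowest p in that same test. They passed by the way they were chosen, so the count says nothing about named genes as a set. Over all tested genes, the change differed for 0.23% against NTg medium and for 0.592% against wtSOD1 medium. Against NTg medium, the log2 difference between the changes was positive for Ly6a at 1.91, Osmr at 0.82, Rdh10 at 0.69, Nek7 at 0.38, Csf2rb2 at 1.52 and Pcsk2 at 0.48, and negative for Usp18 at -2.46, Ccl2 at -2.46, Oasl2 at -1.71, Irf9 at -0.65, Nfkbia at -1.53, Ddx58 at -1.03, Rnd1 at -1.15, Ifih1 at -1.49, Irf1 at -0.96, Crhbp at -0.96, Bst2 at -1.28 and Csf1 at -0.49. Against wtSOD1 medium, it was positive for Reg3b at 0.99, Osmr at 0.76, Rdh10 at 0.88, Abca1 at 1.09, Nek7 at 0.60, Abcg1 at 1.02, Prdm1 at 1.20, Csf2rb2 at 1.88, Pcsk2 at 0.65, Bhlhe41 at 1.27, Serpina3n at 1.41, Socs2 at 0.41 and Fst at 0.62, and negative for Usp18 at -2.17, Ccl2 at -3.15, Nfkbia at -1.47, Ddx58 at -0.64, Rnd1 at -1.05, Irf1 at -0.97, Csf1 at -0.55 and Insig1 at -0.29. The 2 sets share the mSOD1 libraries, and the causes of these differences were not tested.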

How the results depend on the processing

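Under 21 other settings, 12 of which left out 1 mSOD1 library each, the count of genes changed between the days stayed within 1.5 times of 8587. The count over 2-fold was 558 and came to 205 with limma on the authors' transformed values. The count of genes whose change differed from NTg medium was 35, and it was 99 with DESeq2, 70 without the 2 libraries that stood apart and 20 to 60 with 1 mSOD1 library left out. For wtSOD1 medium it was 90, and 233 with DESeq2 and 41 to 222 with 1 library left out. The direction of these calls also moved: of those against NTg, 13 of 35 were higher in the main test, 51 of 99 with DESeq2 and 277 of 406 with the block. With experiment number as a replicate block these 2 counts were 406 and 599. Same-numbered day 3 and day 1 libraries of mSOD1 medium did not deviate together (mean r 0.0511, 2 of 6 pairs over 0.1), while day 3 libraries of mSOD1 and NTg medium did (mean r 0.22, 6 of 6 pairs) and those of day 1 in part (0.107, 3 of 6 pairs). Of 184 named genes 3 crossed the threshold somewhere (Irf1, Bst2 and Hoxc4), 1 of 24 named interactions did (Nfkbia), 10 of 102 list counts moved by over 1.5 times, and 6 list medians near 0 changed sign; no named gene or interaction reversed. The causes were not tested. Depth limits genes of a few CPM, such as Gfap and Aif1.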
